A study of Mus musculus with 12 samples.

Results

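The major urinary proteins are a family of small secreted proteins made by mouse liver cells and excreted in urine. Transcripts of 7 family genes, Mup3, Mup7, Mup10, Mup11, Mup17, Mup20 and Mup21, were followed across all libraries of the series. The genes were taken by name, and each matched 1 of the 52636 genes in the deposited table. Another 41 rows of that table carry a Mup symbol, and they are described only where they bear on these genes.

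The libraries came from hepatocytes of steatotic (fatty) livers of wild-type (WT) mice and of mice with a knockout (KO) of Ptprk, which encodes a receptor-type tyrosine phosphatase. From each mouse, viable hepatocytes poor in fat (low-fat) were parted from those rich in fat (high-fat) by centrifugation, Percoll density gradients included. There were 3 WT mice, named WT1, WT5 and WT6, and 3 KO mice, named KO2, KO4 and KO6, and each gave 1 low-fat and 1 high-fat polyA RNA library. The 12 libraries thus form 4 groups of 3, by genotype and fraction. The labels give neither strain, sex, age, diet nor the way in which the knockout was made.

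Major urinary proteins are lipocalins, barrel-shaped carriers that hold small hydrophobic molecules, among them the volatile pheromones of mouse urine. In liver their genes are known to be transcribed more strongly in males than in females, under the pulses of growth hormone that activate the transcription factor STAT5. The genes lie in a cluster on chromosome 4 and arose by repeated duplication, so that the central members of the cluster are nearly identical and the outer ones, such as Mup20 (which encodes the male pheromone protein darcin), have diverged more.

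How far the transcripts can be told apart was read from the reference coding sequences (GRCm38, GENCODE M21). The window below spans bases 155 to 214 of the Mup17 coding sequence and the aligned bases of the other genes. It was chosen for its many differences from Mup17, and it contains both identical and divergent copies. The other genes look less like Mup17 here than over the whole coding sequence. There Mup17 was 83.5% identical to Mup3 and 91.0% identical to Mup20. Capitals mark bases that differ from Mup17.
Mup17 coding window: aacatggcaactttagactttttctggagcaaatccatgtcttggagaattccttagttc
Mup11 coding window: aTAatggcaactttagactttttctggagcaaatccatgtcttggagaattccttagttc
Mup7 coding window: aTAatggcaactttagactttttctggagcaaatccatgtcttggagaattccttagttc
Mup10 coding window: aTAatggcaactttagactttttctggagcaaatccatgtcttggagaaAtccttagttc
Mup20 coding window: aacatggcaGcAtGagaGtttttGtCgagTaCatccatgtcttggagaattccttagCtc
Mup3 coding window: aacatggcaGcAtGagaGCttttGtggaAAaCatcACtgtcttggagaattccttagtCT
Mup21 coding window: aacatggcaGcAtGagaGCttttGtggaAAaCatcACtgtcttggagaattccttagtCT
Mup7 and Mup11 have the same letters throughout this window, and so do Mup3 and Mup21. Mup10 differs from Mup17 at 3 positions, Mup20 at 9, and Mup3 at 13.

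Over the whole coding sequence, Mup7, Mup10, Mup11 and Mup17 were between 98.3% and 98.9% identical to each other. Mup20 was between 90.1% and 91.3% identical to these 4 genes, and Mup3 and Mup21 were 94.8% identical to each other. In transcripts cut into stretches of 100 bases, the share of stretches found unchanged in another gene was 76.1% for Mup7, 73.4% for Mup10, 70.6% for Mup11 and 59.4% for Mup17. That share was 38.8% for Mup20, where Mup-ps19 was the other gene, 4.50% for Mup21 and 2.23% for Mup3. With stretches of 50 bases it was 50.5% for Mup20, 19.3% for Mup21 and 13.3% for Mup3, and the read length is not given in the sources used here. Values of the 4 near-identical genes are therefore uncertain as values of single genes, because the way in which shared reads were counted is not given in the sources used here. No other annotated gene overlaps any of the 7 genes on either strand.

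Promoter windows, from 250 bases before to 50 bases after the annotated start, were found for 6 of the 7 genes in RefSeq (GRCm38.p6), and none was matched for Mup20. Those of Mup17 and Mup11 are shown because these genes moved together between fractions, and those of Mup3 and Mup21 because these genes did not pass that test. Capitals mark matches, on either strand, to TATATAA and to TGTTCT. The first resembles the core element that positions transcription starts, and the second is a short element of steroid receptors.
Mup17 promoter, chr4:61595783-61596082, minus strand: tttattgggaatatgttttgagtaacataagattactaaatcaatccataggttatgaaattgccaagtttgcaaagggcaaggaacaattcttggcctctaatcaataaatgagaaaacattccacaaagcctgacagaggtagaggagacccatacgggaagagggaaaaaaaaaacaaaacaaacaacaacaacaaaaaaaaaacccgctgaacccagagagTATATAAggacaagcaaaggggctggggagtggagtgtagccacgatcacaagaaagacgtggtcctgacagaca
Mup11 promoter, chr4:60662346-60662645, minus strand: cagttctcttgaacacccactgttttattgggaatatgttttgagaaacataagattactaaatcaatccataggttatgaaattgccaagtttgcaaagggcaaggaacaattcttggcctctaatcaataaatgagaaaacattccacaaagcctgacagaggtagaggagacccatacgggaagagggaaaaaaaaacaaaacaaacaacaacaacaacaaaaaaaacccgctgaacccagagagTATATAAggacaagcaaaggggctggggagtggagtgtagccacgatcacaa
Mup3 promoter, chr4:62087268-62087567, minus strand: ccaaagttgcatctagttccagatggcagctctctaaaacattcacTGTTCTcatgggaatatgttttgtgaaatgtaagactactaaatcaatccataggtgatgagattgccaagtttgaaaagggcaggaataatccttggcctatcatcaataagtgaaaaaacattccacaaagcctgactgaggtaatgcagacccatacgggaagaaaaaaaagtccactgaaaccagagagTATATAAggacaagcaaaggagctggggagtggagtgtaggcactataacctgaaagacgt
Mup21 promoter, chr4:62150792-62151091, minus strand: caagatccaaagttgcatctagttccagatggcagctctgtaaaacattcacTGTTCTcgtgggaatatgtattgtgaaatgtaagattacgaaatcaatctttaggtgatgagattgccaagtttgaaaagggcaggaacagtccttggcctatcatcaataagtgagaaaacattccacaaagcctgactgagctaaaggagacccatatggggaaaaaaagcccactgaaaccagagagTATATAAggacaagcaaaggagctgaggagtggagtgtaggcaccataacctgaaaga
The Mup11 and Mup17 windows were 98.9% identical where they align, the Mup3 and Mup21 windows 92.9%, and the Mup17 and Mup3 windows 76.9%. Mup7 and Mup10 did not pass the test between fractions either. Their windows were 97.7% (171 aligned bases) and 94.6% (295 aligned bases) identical to that of Mup17. TATATAA was present in the windows of Mup3, Mup10, Mup11, Mup17 and Mup21, and in 3.24% of all 32851 promoter windows. It was chosen after the sequences were read. It begins 25 bases before the annotated start of Mup17 but 2 bases before that of Mup11, so annotated starts are not equivalent between the genes. TGTTCT was present in Mup3 and Mup21 only among the 6, and in 19.0% of all windows. The Mup17 window begins inside the place aligned to this element, and the Mup10 window after it. The Mup7 window ends before the place aligned to TATATAA. Absence from those windows is therefore not absence from the promoter. The letters of a STAT5 element, TTCNNNGAA, found in 8.30% of all windows, and TATAAA, found in 13.6%, were in none of the 6 windows.

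Estimated sequencing depth was between 15.1 and 25.0 M (mega) reads per library, and values are given as the deposited reads per 20 M. A value of 3 reads corresponds to at most 3.98 reads per 20 M, so all 7 genes lay far above the counting floor in every library. Hepatocyte transcripts were abundant in each library, with albumin (Alb) between 220636 and 268701 reads per 20 M. Xist, expressed from the inactive X chromosome of females, was at 0 to 6 reads per 20 M, and the Y-linked gene Ddx3y at 1444 to 1808. The targeted gene Ptprk was between 2174 and 2883 in WT and between 1117 and 1364 in KO libraries, so that the groups did not overlap and transcript remained in KO. In limma its log2 change in KO was -1.13 (SE 0.093, adjusted p = 0.0013) in low-fat and -0.99 (SE 0.093, adjusted p = 0.00501) in high-fat libraries.

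Mup3 was the most abundant of the 7 genes in every library and the steadiest. Its values were 43781, 47075 and 46391 reads per 20 M in WT low-fat libraries of WT1, WT5 and WT6, and 43531, 45435 and 44669 in the WT high-fat libraries. In KO2, KO4 and KO6 they were 53809, 45775 and 45720 in low-fat and 48084, 43550 and 52575 in high-fat libraries. The 4 groups overlap, and the highest library was 1.24 times the lowest.

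Mup20, the darcin gene, ranked next. Its values were 23912, 18491 and 22305 in WT low-fat and 22951, 17180 and 20124 in WT high-fat libraries, in the order WT1, WT5 and WT6. For KO2, KO4 and KO6 the values were 30407, 17363 and 19310 in low-fat and 23746, 15748 and 20755 in high-fat libraries. KO2 was high in both fractions, KO4 was the lowest of all mice in both, and the groups overlap.

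Mup21, which lies next to Mup3 in the cluster, separated the mice more widely. Its values were 4664, 2443 and 2022 in WT low-fat and 4158, 2216 and 2275 in WT high-fat libraries of WT1, WT5 and WT6. The KO mice KO2, KO4 and KO6 had 6263, 1342 and 2073 in low-fat and 4279, 1541 and 2731 in high-fat libraries. WT1 and KO2 were above all other mice in both fractions.

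Among the 4 near-identical genes Mup7 was the most abundant. Its values were 8899, 8937 and 4443 in WT low-fat and 11583, 10033 and 6486 in WT high-fat libraries. Values in KO2, KO4 and KO6 were 16279, 2874 and 7346 in low-fat and 15862, 4582 and 9673 in high-fat libraries. KO2 was the highest and KO4 the lowest mouse in both fractions.

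Mup17 had values of 3095, 2037 and 2091 in WT low-fat and 8049, 4062 and 3367 in WT high-fat libraries. In KO2, KO4 and KO6 they were 8882, 1053 and 2384 in low-fat and 14001, 2897 and 3883 in high-fat libraries. The WT high-fat libraries all lay above the WT low-fat ones, whereas in KO the fractions overlap because the mice differ more than the fractions.

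Mup11 had values of 2265, 1263 and 910 in WT low-fat and 3918, 1791 and 1747 in WT high-fat libraries. For KO2, KO4 and KO6 the values were 4868, 533 and 1509 in low-fat and 5965, 1480 and 2502 in high-fat libraries. In each mouse the high-fat library was above the low-fat one, with the smallest gap in KO2.

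Mup10 was the least abundant of the 7. Its values were 242, 284 and 244 in WT low-fat and 315, 333 and 366 in WT high-fat libraries. The KO mice KO2, KO4 and KO6 had 405, 230 and 265 in low-fat and 384, 276 and 583 in high-fat libraries. The WT fractions do not overlap, and KO6 high-fat was the highest library.

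**Figure D1:**
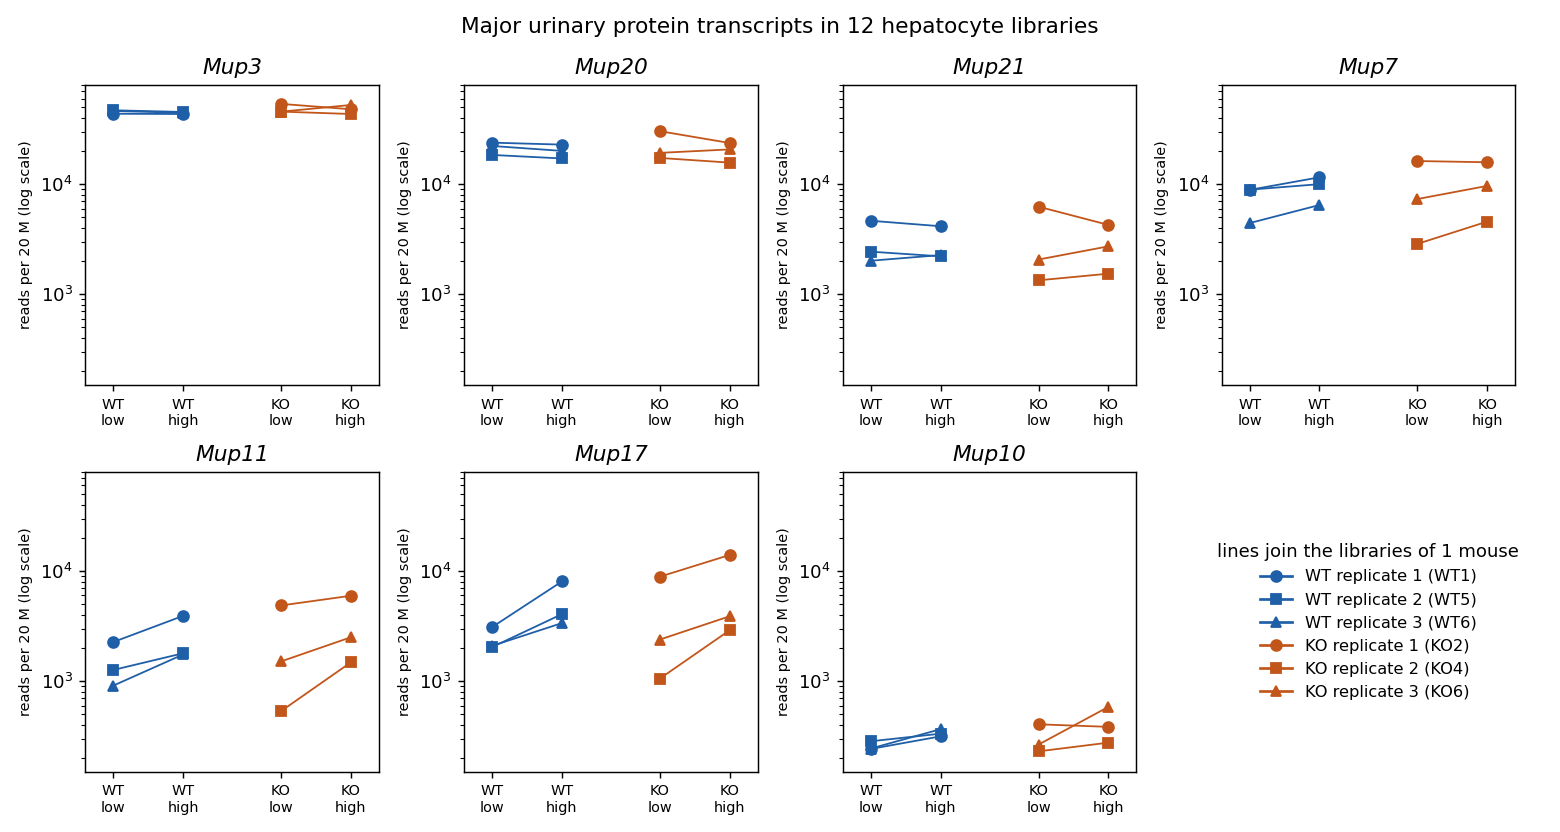
Deposited reads per 20 M (log axis) of each of the 7 genes in the 12 libraries; each line joins both libraries of 1 mouse, WT in blue and KO in orange, with the marker shape giving the replicate number. Mup3 stays between 43531 and 53809, whereas Mup17 spans 1053 to 14001 and rises along each line.

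Divided by the length of their exons, to compare levels between genes, the mean levels over 12 libraries were 43726 reads per 20 M per kb for Mup3, 22656 for Mup20 and 8632 for Mup7. They were 5016 for Mup17, 4432 for Mup21, 1520 for Mup11 and 235 for Mup10. Mup3 ranked at place 10 among all genes with a known length. The order Mup3, Mup20, Mup7 was the same in 12 of 12 libraries, and Mup21 was above Mup11 and Mup11 above Mup10 in 12 of 12. Per kb, Mup17 was above Mup21 in 6 of 6 high-fat libraries and below it in 5 of 6 low-fat libraries. The low-fat order depends on the exon lengths used, 927 bases for Mup17 and 677 for Mup21. As deposited, Mup17 was above Mup21 in low-fat libraries of WT6 (2091 against 2022), KO2 (8882 against 6263) and KO6 (2384 against 2073). In those of WT1, WT5 and KO4 it was below. The order also depends on how reads shared by Mup17 were counted.

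Together the 7 genes took between 0.346% of the reads, in KO4 low-fat, and 0.604%, in KO2 low-fat. Mup3 and Mup20 made up between 64.0% of that sum, in KO2 high-fat, and 91.3%, in KO4 low-fat. The mice with the most Mup reads thus had a larger share from the other 5 genes. The size of these shares also depends on how shared reads were counted.

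**Figure D2:**
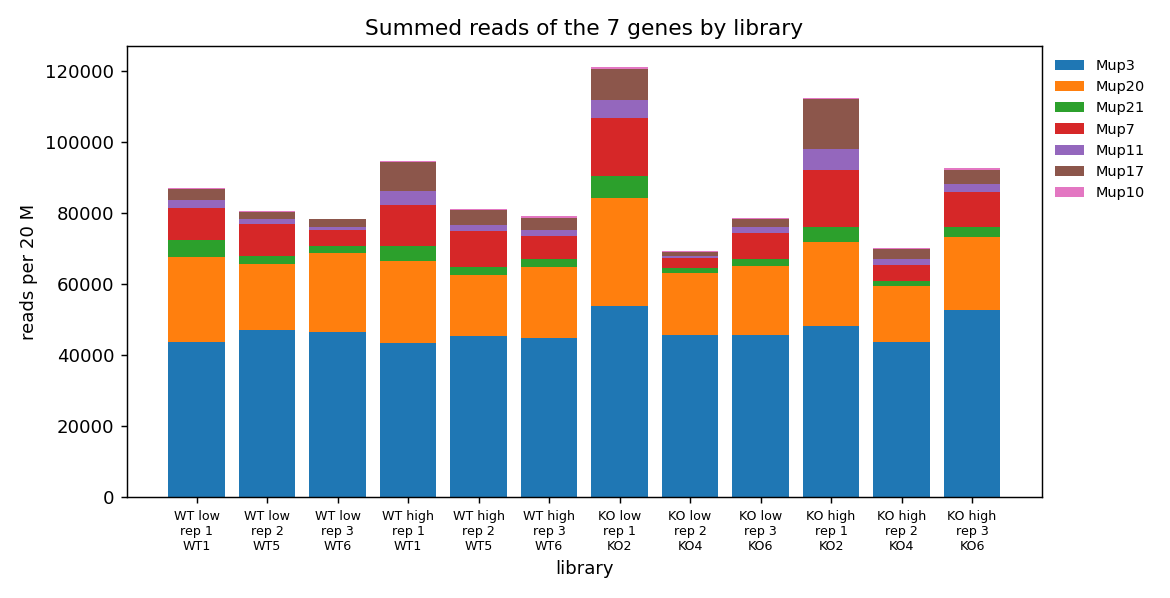
Deposited reads of the 7 genes, as reads per 20 M, stacked for each of the 12 libraries (rep, replicate; the mouse name is on the third line). Both KO2 bars exceed all others, with 120913 and 112321 reads, and the KO4 bars are the lowest, with 69170 and 70074.

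For 4 of the genes the level depended strongly on the mouse of origin. The SD between mice of the same genotype, on the log2 level averaged over both fractions (6 mice), was 1.02 for Mup11, 1.02 for Mup17, 0.83 for Mup7 and 0.76 for Mup21. It was 0.29 for Mup20, 0.28 for Mup10 and 0.09 for Mup3, beside a median of 0.13 over the 10517 tested genes with a mean level of 100 or more. Mup11 and Mup17 lay at percentile 99.4 and 99.3 of those genes, and Mup3 at percentile 23.0. For Mup17 the highest mouse, KO2, was 6.38 times the lowest, KO4, and for Mup11 the same mice differed 6.06-fold. Both of those mice are KO.

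The comparison of KO with WT asked whether loss of Ptprk changes transcript levels at a given lipid content. None of the 7 genes was called (limma, adjusted p under 0.05) in low-fat libraries, where 0.00604% of 16563 tested genes were called, Ptprk alone. None was called in high-fat libraries either, where the share of tested genes called was again 0.00604%. The log2 changes, KO minus WT on the log2(value + 2) scale, had a median of 0.09 over the 7 genes in low-fat and 0.11 in high-fat libraries, beside medians of -0.0036 and -0.014 over all tested genes. Leaving out KO2 turned the median of the 7 to -0.59 in low-fat and -0.21 in high-fat libraries, and leaving out KO4 raised it to 0.38 and 0.45. For none of the 7 did KO and WT libraries of a fraction fail to overlap, while 5.43% and 5.19% of tested genes showed no overlap.

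The interval of the genotype difference was narrow for Mup3 and wide for the genes that vary between mice. Its spread came from all 12 libraries, with both fractions of a mouse counted as independent. The genotype intervals may therefore be too narrow for a comparison of 3 with 3 mice. Mup3 differed by 0.09 (95% interval -0.22 to 0.39, limma adjusted p = 1) in low-fat and 0.11 (-0.19 to 0.41, limma adjusted p = 0.9999) in high-fat libraries. For Mup20 the low-fat difference was 0.02 with an interval of -0.48 to 0.53. Its high-fat difference, -0.0054, turned positive without a filter on low values (0.012). For Mup17 the low-fat difference of 0.26 had an interval of -1.32 to 1.84, and with the replicate number as a block, -0.61 to 1.13. Mup11, with 0.20 (-1.38 to 1.79) in low-fat and 0.29 (-1.30 to 1.87) in high-fat libraries, had a blocked low-fat interval of -0.63 to 1.04. Mup7 differed by -0.0066 (-1.29 to 1.28) and -0.028 (-1.31 to 1.26), Mup21 by -0.13 (-1.33 to 1.07) and -0.07 (-1.27 to 1.13), and Mup10 by 0.19 (-0.40 to 0.79) and 0.23 (-0.36 to 0.83). Same-numbered WT and KO low-fat libraries deviated together in all 3 pairs, and the blocked low-fat intervals were -1.03 to 1.02 for Mup7, -0.70 to 0.45 for Mup21 and -0.38 to 0.77 for Mup10. All blocked intervals given here include 0, and those of Mup17, Mup11 and Mup7 reach a rise by a factor of 2. The blocked intervals of Mup17, Mup11 and Mup21 do not reach a fall by a factor of 2, but their unblocked intervals do. Such a fall is not excluded, because WT and KO mice share nothing but a replicate number in the labels. With WT1 and KO2, the mice of replicate 1, left out of both genotypes, the low-fat difference of Mup17 was -0.39 and that of Mup11 -0.26. The sign in low-fat libraries thus rests on KO2: without it the difference was -0.59 for Mup17, and without KO4 it was 0.99.

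**Figure D3:**
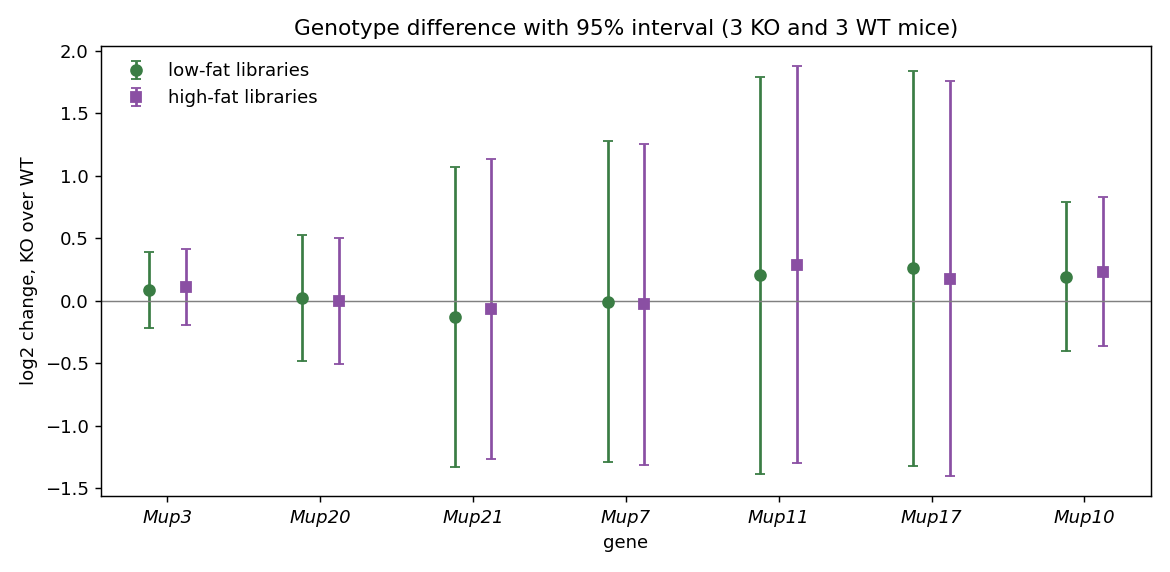
Difference between 3 KO and 3 WT mice for each gene (log2 scale), with the limma estimate as a point and its 95% interval as a bar, for low-fat (circles) and high-fat (squares) libraries. The fit counted both fractions of a mouse as independent, so the bars may be too narrow. All 14 intervals include 0, and those of Mup3 are the narrowest.

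The comparison of fractions asked how transcript levels differ between hepatocytes of high and of low lipid content. Mup17 and Mup11 were higher in the high-fat fraction of all 6 mice, as were 9.96% of tested genes. On the rescaled values, Mup17 was between 1.40-fold, in KO2, and 2.72-fold, in KO4, higher in the high-fat library of the same mouse. Mup11 was between 1.09-fold, in KO2, and 2.75-fold, in KO4, higher. In these bulk libraries, fewer cells of a type and less RNA per cell cannot be told apart.

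Averaged over both genotypes with the mouse as a block, a comparison added after the data were seen, Mup17 rose by a log2 change of 0.93 (SE 0.13, 95% interval 0.62 to 1.23, limma adjusted p = 0.00628). Mup11 rose by 0.73 (SE 0.14, interval 0.40 to 1.07, limma adjusted p = 0.0185). These were 2 of 7 genes called, both higher, beside 11% of 16563 tested genes called and 6.76% called higher. The median log2 change of the 7 genes was 0.30, beside -0.022 over all tested genes. Without the block, which leaves the differences between mice in the error, neither gene was called (limma adjusted p = 0.377 for Mup17 and 0.502 for Mup11). Mup17 was called whichever mouse was left out. Mup11 was not called without WT1 (limma adjusted p = 0.0652), WT5 (0.0642), WT6 (0.0644) or KO6 (0.0636).

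Their near-identical relatives Mup7 and Mup10 did not pass the test. Mup7 was higher with high fat in 5 of 6 mice, with a log2 change of 0.30 (SE 0.10, limma adjusted p = 0.105), and Mup10 in 5 of 6, with 0.36 (SE 0.16, limma adjusted p = 0.172). KO2 was the mouse that went the other way for both, at -0.21 for Mup7 and -0.25 for Mup10. Without KO2 both were called, at 0.43 for Mup7 (limma adjusted p = 0.00285) and 0.52 for Mup10 (0.0315). With the deposited scaling alone, Mup7 was called at 0.35 (limma adjusted p = 0.0401).

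The divergent genes gave small values around 0. Mup20 was lower with high fat in 5 of 6 mice, with a mean log2 change of -0.17 (95% interval -0.38 to 0.03, limma adjusted p = 0.252). Mup3 was at -0.08 (-0.30 to 0.14) and Mup21 at -0.07 (-0.37 to 0.24), and neither passed the test. For Mup21 3 of 6 mice were higher in the high-fat library, and its mean turned to 0.10 without KO2. These intervals exclude a rise of the size estimated for Mup17.

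**Figure D4:**
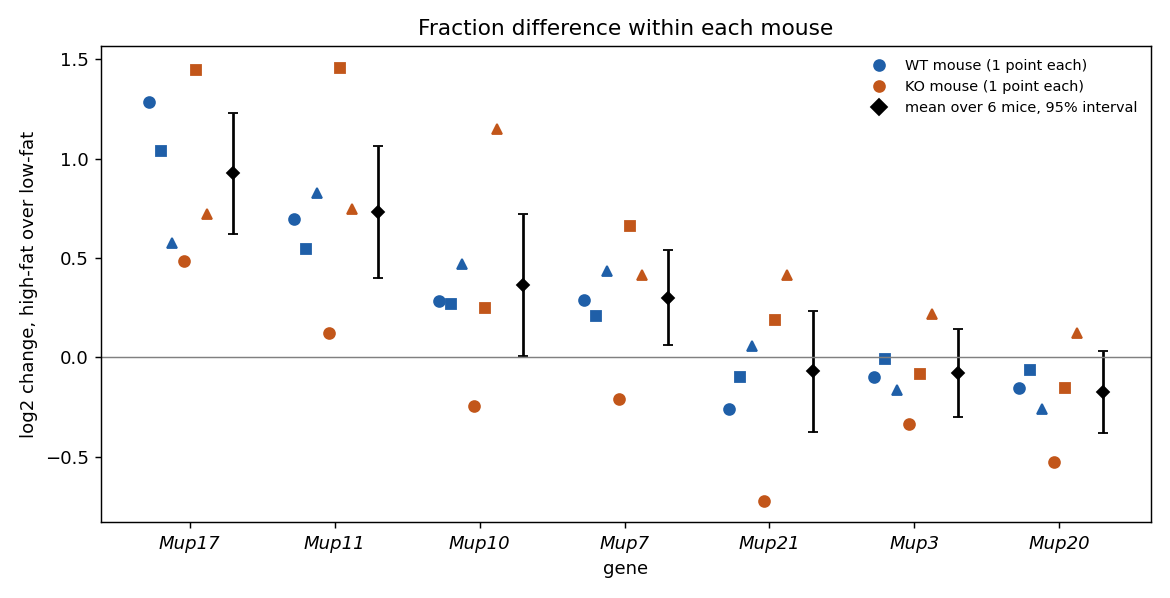
Log2 change from the low-fat to the high-fat library of the same mouse for each gene; circles, squares and triangles are replicates 1, 2 and 3 of WT (blue) and KO (orange), and black diamonds are limma means over 6 mice with 95% intervals. All 6 mice lie above 0 for Mup17 and Mup11, and KO2 (orange circle) is the lowest mouse for each of the 7 genes.

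Within single genotypes, no member was called. In WT, 0% of tested genes were called without a block, and the unadjusted p was under 0.05 for 1847 of 16563 genes and for none of the 7. With the mouse as a block 0% were called as well, and 3209 genes had an unadjusted p under 0.05. In that fit Mup17 was at 0.97 (SE 0.19, limma adjusted p = 0.0621) and Mup11 at 0.69 (SE 0.20, limma adjusted p = 0.141). The fractions of WT did not overlap for Mup17 and Mup10, nor for 17.4% of tested genes. In KO, 0.839% of tested genes were called without a block and 1.7% with it, and the fractions did not overlap for 13.4% of tested genes and for none of the 7. The blocked values were 0.88 (SE 0.19, limma adjusted p = 0.0609) for Mup17 and 0.78 (SE 0.20, limma adjusted p = 0.109) for Mup11. KO and WT share no libraries in this pair of comparisons, and the interaction of genotype and fraction was called for 0% of tested genes. In the interaction fit 24 genes had an unadjusted p under 0.05 without a block and 66 with it, and the 7 genes differed between genotypes by -0.08 to 0.08 on the log2 scale. The blocked 95% interval was -0.69 to 0.52 for Mup17.

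Markers of other cells and of liver zones moved with the fraction. In the averaged blocked fit 6.76% of all tested genes were called higher in high-fat libraries and 4.23% lower. Called higher were 10 of 11 Kupffer cell markers, 10 of 10 stellate cell markers and 10 of 10 sinusoidal endothelial markers. The summed level of the stellate list was 155 to 739 reads per 20 M in low-fat and 2256 to 3886 in high-fat libraries. That of the Kupffer list was 514 to 1447 against 2290 to 12539, and that of the endothelial list 1154 to 2790 against 4761 to 15392. No marker among these lists was listed at 0 throughout. Of 8 pericentral hepatocyte genes, which are active around the central vein, 6 were called higher, and of 8 periportal genes 6 were called lower. Cyp2e1, a pericentral cytochrome P450, rose by 0.73 and Cdh1, E-cadherin of periportal hepatocytes, fell by 0.97 on the log2 scale (limma adjusted p = 0.00613 and 0.00382). The part of these lists in the Mup17 and Mup11 values was not tested.

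Growth hormone signalling was described with a list of 26 genes, all tested. In the averaged blocked fit 1 was called higher and 6 lower in high-fat libraries, with a median log2 change of -0.11. Over all tested genes 6.76% were called higher and 4.23% lower, with a median of -0.022. Among the receptor and its kinase, the growth hormone receptor Ghr was at -0.08 (SE 0.06) and Jak2 at 0.0067 (SE 0.05), and neither was called. The transcription factors Stat5a, at 0.20 (limma adjusted p = 0.0746), and Stat5b, at -0.12 (limma adjusted p = 0.130), were not called. Among targets, Igf1, the hormone released in response to growth hormone, fell by 0.33 (SE 0.05, limma adjusted p = 0.01), and Igfals, which carries it in serum, fell by 0.28. Cish, a feedback inhibitor of the pathway, fell by 0.41 (SE 0.10, limma adjusted p = 0.0432), while Socs2, another such inhibitor, was at 0.16 and did not pass. The repressor Bcl6 was at -0.07 and did not pass. The transcription factors Hnf4a and Onecut1 fell by 0.28 and 0.23, and the estrogen receptor gene Esr1 fell by 0.78. Igfbp3, which binds insulin-like growth factors, rose by 2.43 but was low, at 2 to 213 reads per 20 M. Median changes of the Kupffer, stellate and endothelial lists in the same fit were 2.26, 2.51 and 1.80. Whether the Igfbp3 reads came from such cells was not tested.

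No gene of the growth hormone list was called between KO and WT in either fraction, where 0.00604% of all tested genes were called in each. Its genes varied between mice to very different degrees: the SD between mice of a genotype (log2) was 2.23 for Cish, 1.36 for Onecut1, 1.28 for Bcl6 and 0.74 for Socs2, beside 0.33 for Igf1, 0.33 for Stat5a, 0.14 for Stat5b, 0.08 for Jak2 and 0.07 for Ghr. Cish and Onecut1, the most variable of these, are given by mouse. Cish was at 1680 and 1152 reads per 20 M in the low-fat and high-fat libraries of WT1 and at 954 and 613 in KO4, against 23 and 28 in KO2. In WT5, WT6 and KO6 it was between 107 and 349. KO2 had the highest Mup7, Mup11 and Mup17 values together with the lowest Cish, whereas WT1 had the highest Cish and the next highest Mup17 and Mup11. Onecut1 was at 248 and 229 in KO2, beside 936 to 3750 in the other mice.

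Genes of sex-biased expression in liver were described as lists too. Of 19 male-biased genes 5 were called higher and 2 lower in high-fat libraries, with a median log2 change of 0.19. Over all tested genes 6.76% were called higher and 4.23% lower, with a median of -0.022. Between genotypes none of the 19 was called, beside 0.00604% of all tested genes in each fraction. In high-fat libraries the steroid dehydrogenase gene Hsd3b5 rose by 0.53, the fatty acid elongase gene Elovl3 by 0.34 and the organic anion transporter gene Slco1a1 by 0.28. C6 of the complement system rose by 0.27 and the complement regulator gene Susd4 by 0.90. Serpina1e, of the alpha-1-antitrypsin family, fell by 0.41, and Cyp2u1 fell by 0.32. The most abundant of these genes were Serpina1e, Cyp2d9 and Gstp1. Of 15 tested female-biased genes 4 were called higher and 1 lower, beside 6.76% and 4.23% of all tested genes. The steroid-metabolising cytochromes Cyp3a16, Cyp3a44, Cyp3a41a and Cyp2a4 rose by 1.70, 1.47, 1.34 and 1.29 and Cyp17a1 fell by 0.64, and the most abundant genes of the list were Slco1a4, Cyp2b9 and Cyp17a1. Genes of both lists were thus called in both directions.

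Of 10 tested lipocalins outside the Mup cluster, Orm3, an acid glycoprotein, rose by 0.65 and Obp2a, an odorant-binding protein, fell by 0.80 in high-fat libraries. Only these were called, beside 11% of all tested genes. The most abundant of these lipocalins were Rbp4, Ambp and C8g, with Rbp4, the retinol carrier of plasma, at 29012 to 33844 reads per 20 M. Of 13 hepatocyte genes only Hnf4a was called, beside 11% of all tested genes, and the most abundant were Apob, Alb and Cps1.

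Genes whose pattern over the 12 libraries was most like that of the Mup genes were ranked by the root mean square difference of centred log2 values, among 10497 non-Mup genes. For the mean of the 7 genes these were Slc22a28 (0.24), F2r (0.26) and Tbc1d2b (0.28), while the mean profile itself had a root mean square of 0.51. For Mup20 they were Gstp1 (0.0845), 1700037H04Rik (0.085) and Tsc22d4 (0.12). For Mup3 they were the protease inhibitor genes Serpina1a (0.0568) and Serpina1b (0.0611) and the ferritin gene Ftl1 (0.062). For Mup21 they were Rarres1 (0.27), Cyp7b1 (0.29) and F2r (0.32). Among the 7 genes themselves, Mup3 and Mup20 were nearest, at 0.22, followed by Mup11 and Mup17, at 0.24, and Mup3 and Mup17 were farthest apart, at 0.97. The Mup3 and Mup20 profiles had root mean squares of only 0.13 and 0.27. Mup3 was thus farther from Mup20 than from a flat profile, and their small distance does not show a shared pattern.

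Gstp1, a glutathione transferase, shows how close such a profile can be to that of Mup20. It was at 17156 and 14185 reads per 20 M in KO2, the highest mouse, and at 8904 and 8242 in KO4, the lowest. Cyp7b1, an oxysterol hydroxylase, was likewise highest in KO2, at 6451 and 7134, and lowest in KO4, at 1538 and 2388, with WT1 next highest at 4783 and 5631.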

How the data were processed

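Hepatocyte RNA of 6 mice was measured in 12 libraries, grouped by the genotype and fraction in their titles. The deposited values are a score: the authors scaled gene read counts to 20 M (mega) per library and rounded them up, as the values themselves show. Per the submitters' processing notes the build was mm9. Aligner, counter and annotation are not given in the sources used here. Gene identifiers are Ensembl's, and 52403 of 52636 are in GENCODE M21. Depth was estimated from the spacing of low values, so that floors cover counting error only. Reads without molecular identifiers are not independent molecules.

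Genes with at least 10 reads per 20 M in at least 3 libraries (16563) were rescaled by trimmed means of M values, transformed as log2(value + 2), and fitted with limma 3.58.1 in R 4.3.3 on 4 group means with a trend in the variances. Tests are two-sided, Benjamini-Hochberg adjusted over all genes tested, with a threshold of 0.05. The log2 scale understates changes of low genes. The script was tested on simulated data for the 5 fixed comparisons, but not for the averaged fraction comparison. Of 200 genes changed 2-fold, 61% to 69% were recovered between groups and 45.5% to 47% in the interaction. The changed genes were drawn at random, and most genes vary far less between mice than Mup7, Mup11, Mup17 and Mup21. These recovery rates therefore do not apply to Mup7, Mup11, Mup17 and Mup21. False calls were 1 to 26 per run, runs with 4-fold changes included. Per-mouse levels and fold values use rescaled reads, and the levels given by library are as deposited.

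Fractions are paired by mouse name in the labels. Fits without the mouse as a block, all genotype comparisons included, took both fractions of a mouse as independent. Same-mouse libraries correlated, as deviations from group means, by 0.47 to 0.58 in WT and -0.0087 to 0.46 in KO. WT and KO share only replicate numbers, and same-numbered libraries correlated by 0.25 to 0.40 in low-fat and -0.17 to 0.49 in high-fat libraries. Replicates are different mice. Alternatives comprised other scalings, pseudocounts, no filter, only the libraries compared, a replicate block and each replicate left out. The averaged fraction comparison and the omission of WT1 and KO2 were added after seeing the data.

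The members and lists were chosen with earlier results of these data known. Named genes are the 7 members, other Mup rows with a mean level of 100 or more, 8 genes of the growth hormone axis, called genes and the 3 most abundant genes of the male-biased, female-biased, lipocalin and hepatocyte lists, and the 3 nearest genes per profile. Ptprk, Ddx3y, Xist and the zone markers named were added as checks, and per-mouse values of Cish, Onecut1, Gstp1 and Cyp7b1 were chosen after their values were seen. Motifs were searched on both strands.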

Additional observations from a re-analysis of the deposited data

How the results depend on the processing

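None of the 7 genes was called in the genotype comparisons, the fraction comparisons of single genotypes or the interaction under any alternative run, replicate block included. Only the sign of uncalled values turned. The high-fat genotype difference of Mup20 was 0.012 without a filter and 0.0053 with only the libraries compared. The KO fraction difference of Mup21 was 0.016 with the deposited scaling. Leaving out WT1 and KO2 turned the low-fat genotype difference to -0.038 for Mup3, -0.099 for Mup10, -0.26 for Mup11, -0.39 for Mup17 and -0.16 for Mup20, and the high-fat one of Mup17 to -0.12. Leaving out single replicates, log2 ranges that cross 0 were as follows. For KO against WT in low-fat libraries they were -0.011 to 0.15 for Mup3, -0.63 to 0.66 for Mup7, -0.063 to 0.38 for Mup10, -0.63 to 1.01 for Mup11, -0.59 to 0.99 for Mup17, -0.24 to 0.20 for Mup20 and -0.78 to 0.37 for Mup21. In high-fat libraries they were -0.40 to 0.45 for Mup7, -0.078 to 0.49 for Mup10, -0.21 to 0.75 for Mup11, -0.46 to 0.63 for Mup17, -0.10 to 0.16 for Mup20 and -0.37 to 0.32 for Mup21. For the fractions they were -0.0046 to 0.55 for Mup7 and -0.37 to 0.25 for Mup21 in WT and -0.17 to 0.030 for Mup3, -0.37 to 0.91 for Mup7, -0.026 to 1.61 for Mup11, -0.37 to 0.075 for Mup20 and -0.53 to 0.61 for Mup21 in KO. For the interaction they were -0.066 to 0.12 for Mup3, -0.69 to 0.60 for Mup7, -0.26 to 0.30 for Mup10, -0.72 to 0.92 for Mup11, -0.81 to 0.76 for Mup17, -0.21 to 0.23 for Mup20 and -0.44 to 0.71 for Mup21, and for the averaged fraction difference -0.19 to 0.10 for Mup21. The cause was not tested.

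With only the libraries compared, 0 genes were called between genotypes in either fraction and 0 between KO fractions, where limma's unadjusted p was under 0.05 for 282, 232 and 1261 genes. Called genes were 1 for WT fractions with a pseudocount of 10, and 282 for KO fractions with the replicate block (139 without it). Leaving out 1 library gave 0 to 1 called genes between genotypes in high-fat libraries and 0 to 37 between KO fractions. In the averaged fraction comparison, 956 genes and 0 of the 7 were called without the replicate block, against 1819 and 2 with it. Leaving out 1 mouse gave 551 genes without WT1, 651 without WT5, 1004 without WT6, 928 without KO6, 2662 without KO4 and 1579 without KO2, and 1 to 4 of the 7, with 4 without KO2. Blocking by replicate number changed no call between genotypes. The nearest gene to each profile was the same under 3 scalings. A scaling factor shifts all genes of a library almost alike, so that outcome was nearly fixed in advance and is no check of the ranking. All 7 genes lay far above the counting floor.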

Other observations

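The other Mup rows of the table were 14 genes and 27 pseudogenes, of which 27 were tested and 5 were listed at 0 in every library. Those with a mean level of 100 or more were Mup14 (3987), Mup15 (1664), Mup16 (1303), Mup-ps19 (1172), Mup12 (947), Mup1 (917), Mup18 (588), Mup9 (508), Mup-ps16 (397), Mup2 (251), Mup19 (207), Mup-ps20 (204) and Mup8 (119), given as mean reads per 20 M over 12 libraries. In the averaged comparison of fractions 8 of the 27 tested were called higher in high-fat libraries, namely Mup9, Mup13, Mup15, Mup16, Mup18, Mup19, Mup-ps13 and Mup-ps16, and 1 lower, Mup-ps20. Of all tested genes 6.76% were called higher and 4.23% lower in that comparison. The median log2 change of the 27 was 0.44. Mup9, Mup13, Mup15, Mup16, Mup18 and Mup19 share stretches of 50 bases with members of the 7, so reads could be shared with them, and no such stretch was found for Mup-ps13, Mup-ps16 or Mup-ps20.

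Mup-ps20 fell by 1.23 on the log2 scale (SE 0.13, limma adjusted p = 0.00382) and was lower with high fat in 6 of 6 mice. It was at 787 and 408 reads per 20 M in WT1 and at 673 and 289 in KO2, the mice of replicate 1, beside 13 to 81 in the other 4 mice. Moxd1, a monooxygenase gene chosen after its values were seen, split the mice the same way. It was at 1007 and 1024 in WT1 and at 2500 and 1841 in KO2, beside 0 to 9 in the other mice. WT1 and KO2 differ in genotype, so that this split does not follow the groups of the study. Selenbp2, also chosen after its values were seen, was at 7739 and 9784 in WT1 and at 10369 and 11025 in KO2, beside 866 to 2903 in the other mice.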
